A study of Arabidopsis thaliana with 6 samples.

Results

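The genes described here are the plastid-encoded genes of Arabidopsis that do not belong to the photosynthetic complexes: those of the plastid's own RNA polymerase, its ribosome, and a few other proteins. They were taken as the probe sets annotated to 1 gene only, encoded in the plastid genome, whose symbol does not start with psa, psb, pet, atp, ndh or rbc. This gave 26 probe sets for 26 genes, out of 22746 probe sets on the array that are not controls. The 26 comprised 4 RNA polymerase genes, 8 genes of the small and 7 of the large ribosomal subunit, and 7 other genes. Probe sets that list several gene copies, those of rpl2, rpl23, rps7, rps12, ycf1 and ycf2, do not meet the rule and were not analysed here.

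Expression was measured on 6 Affymetrix ATH1 arrays of shoot RNA from 3-week-old seedlings, 3 for each of 2 genotypes. EBE-XVE is line 14, in the Col-0 background, carrying the AP2/ERF transcription factor gene EBE under an estradiol-inducible promoter, and WT is Col-0. Both genotypes were kept for 16 h in shaken liquid medium and then exposed to 2 µM β-estradiol for 45 min, so there was no array without estradiol, and EBE-XVE was represented by 1 line. The series asks which genes respond early to EBE, so the genotype comparison is the one it was designed for. The replicates are called biological in the labels, which do not describe how the plants were grown apart.

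Plastids keep a small genome that is read by 2 kinds of RNA polymerase. One is a bacterial-type enzyme, whose core subunits are encoded by rpoA, rpoB, rpoC1 and rpoC2 in the plastid itself and whose sigma factors come from the nucleus, and the other is a phage-type enzyme encoded wholly in the nucleus. Most plastid genes are transcribed in groups from shared promoters, and the long transcripts are then cut, spliced and edited. The plastid ribosome is likewise mixed, with some proteins encoded by plastid rps and rpl genes and the rest by nuclear genes.

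Some facts of the whole series bear on the values below. EBE (AT5G61890), the induced gene, read 8.55, 7.21 and 3.19 log2 units in EBE-XVE and 4.26, 2.98 and 3.02 in WT, each in the order of replicates 1, 2 and 3. The EBE-XVE sample of replicate 3 thus lacked the raised EBE signal, and it is called the array labelled EBE-XVE replicate 3. Replicate 1 of both genotypes stood apart from the other 4 arrays, with median signals of 5.38 and 5.47 against 4.44 to 4.50. Of 7 shoot markers 3 could be matched to a probe set named for that gene alone, which is what measured means for listed genes here. These 3, LHCB4.1, PSAN and RCA, lay between 11.99 and 14.20 on every array. Of the root markers 3 of 7 were measured. EXPA7 and EXPA18, which mark root hairs, read 1.75 to 2.13, under each array's lower quartile (2.50 to 2.67), whereas PYK10, a β-glucosidase gene expressed mainly in roots, read 12.14 and 12.26 in replicate 1 against 8.58 to 9.21 elsewhere. Summed over the 3 measured root markers, the signal was 12.15 and 12.26 log2 units in replicate 1 and 8.61 to 9.23 elsewhere. This sum is in effect PYK10 alone. The summed shoot marker signal was 14.83 and 15.34 in replicate 1 against 14.50 to 14.90.

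The arrays labelled replicate 1 carried less signal from most of these plastid genes, in both genotypes alike. Of the 26 genes, 20 were lower in replicate 1 than in replicates 2 and 3 and 1 was higher by limma (adjusted p under 0.05), beside 11.6% of all probe sets called lower and 42.4% called higher. The median difference of the 26 genes was -1.93 log2 units, where the median of all probe sets was 0.28. Differences of at least 2-fold downward were found for 18 of the 26, beside 1.77% of all probe sets. Both replicate 1 values lay below all 4 others for 22 of the 26 genes (18.3% of all probe sets) and above them for 2 (52.3%). The fit had genotype and replicate number as terms. Its p-values rest on how far the 2 genotypes differed in their replicate differences. They do not measure how much 1 seedling replicate varies from another. The comparison was chosen with the shift of replicate 1 in plastid genes already known. It is thus a description of that shift gene by gene and no independent evidence of it. In RNA from whole shoots, fewer plastid-rich cells and less plastid RNA per cell cannot be told apart. These are not the only possible causes, and none was tested.

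The scale between arrays bears on this result, since the median signal of the replicate 1 arrays was higher. Their lower quartiles, 2.67 and 2.64, were close to the 2.50 to 2.57 of the other arrays, so the rise did not extend evenly to dim probe sets. After quantile normalization 22 of the 26 genes were called lower and 0 higher, with 33.7% of all probe sets lower and 20.4% higher. With each array centred on its median, 25 were lower and 0 higher, with 59.4% of all probe sets lower and 9.94% higher. The 20 genes called lower on the deposited scale were lower under both scalings. Relative to the median of all probe sets, the median of the 26 genes was -2.21 on the deposited scale, -2.45 after quantile normalization and -2.21 after centring. Centring moves every probe set of an array by the same amount. The relative values before and after it are therefore equal by construction, here and for the single genes below, and only quantile normalization gives a further value.

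**Figure D1:**
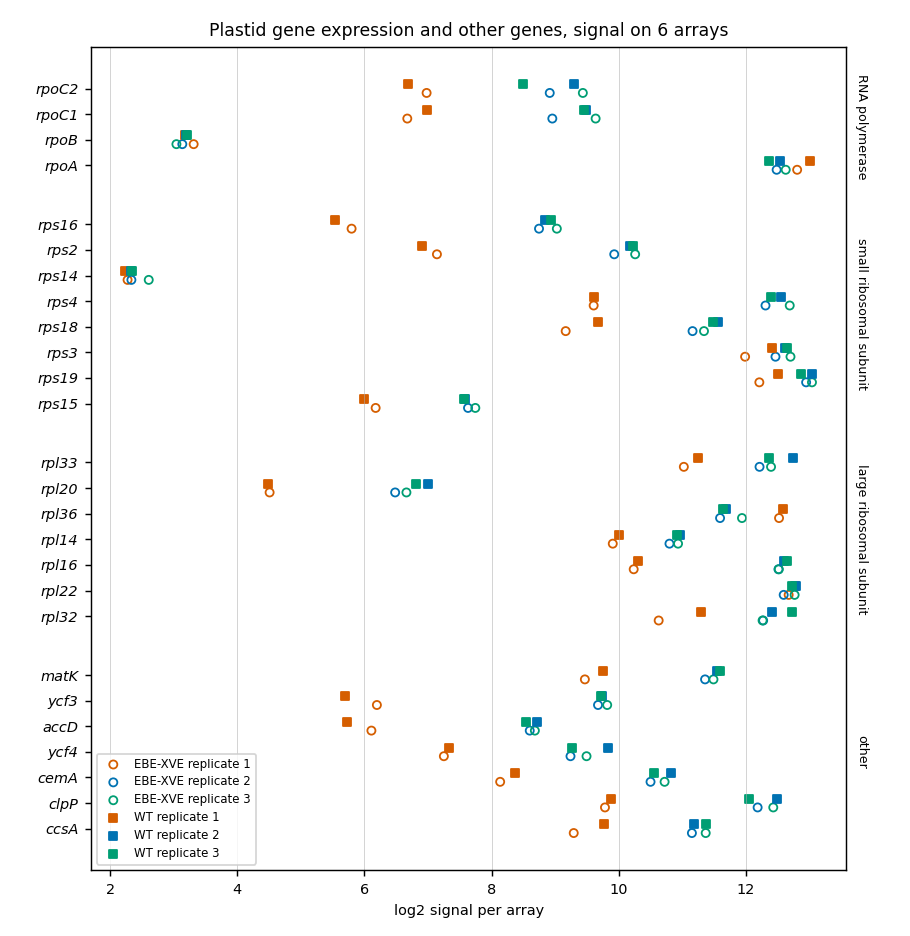
Log2 signal (x axis) of each of the 26 plastid genes (y axis, grouped by role) on the 6 arrays, with open circles for EBE-XVE, filled squares for WT and 1 colour per replicate number. The EBE-XVE circle of replicate 3 is the array labelled EBE-XVE replicate 3, and the orange replicate 1 points of both genotypes lie to the left of the others for 22 of the 26 genes.

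Of the 4 polymerase genes 2 were lower in replicate 1 and 2 did not pass on the deposited scale. In what follows 6 values in a row are EBE-XVE replicate 1, replicate 2 and the array labelled EBE-XVE replicate 3, then WT replicates 1, 2 and 3. For rpoC1 (ArthCp013), which encodes the β′ subunit, the log2 signals were 6.67, 8.96, 9.64, 6.98, 9.49 and 9.45. Both replicate 1 values lay more than 1 log2 unit below every other array, and the groups did not overlap. Replicate 1 was lower by -2.55 (SE 0.19, limma adjusted p = 6.9e-04), a 5.87-fold difference. For rpoC2 (ArthCp012), the β″ subunit gene, the signals were 6.98, 8.91, 9.44, 6.69, 9.29 and 8.50. Replicate 1 was again below all others, by -2.20 (SE 0.28, limma adjusted p = 0.00273), but the WT arrays of replicates 2 and 3 also differed from each other more than for any other of the 26 genes.

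The α subunit gene rpoA (ArthCp055) behaved otherwise, at 12.81, 12.48, 12.63, 13.01, 12.54 and 12.37. Here both replicate 1 arrays were brighter than the other 4, although the difference of 0.41 (SE 0.16) did not pass (limma adjusted p = 0.0852). It passed as higher without a genotype term, with replicate 1 as a single term, and when the array labelled EBE-XVE replicate 3 was left out (limma adjusted p = 0.044, 0.041 and 0.044). Its sign turned to -0.03 with quantile normalization, which did not pass, and to -0.55 with centring, which passed as lower (limma adjusted p = 0.0193), while relative to the median of all probe sets it was 0.12, 0.02 and 0.12 on the 3 scales. The β subunit gene rpoB (ArthCp014) read 3.31, 3.13, 3.04, 3.18, 3.19 and 3.21, so all 6 arrays lay within a narrow, dim range and the groups overlapped. Its difference was 0.10 (SE 0.10, limma adjusted p = 0.41), or -0.28 and -0.85 with quantile normalization and centring, where it passed. Relative to the median of all probe sets it was -0.18, -0.23 and -0.18 on the 3 scales. The neighbouring polymerase genes rpoB, rpoC1 and rpoC2 lie side by side in the plastid genome, and the dim rpoB probe set did not follow the other 2.

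Among the genes of the small ribosomal subunit, 6 of 8 were lower in replicate 1 and 2 did not pass, with a median of -1.76. The largest difference was that of rps16 (ArthCp004), at 5.80, 8.75, 9.03, 5.53, 8.84 and 8.94. The 4 arrays of replicates 2 and 3 lay between 8.75 and 9.03, and replicate 1 was lower by -3.22 (SE 0.16, limma adjusted p = 2.4e-04), or 9.33-fold. Then came rps2, next to rpoC2, at -3.12 (SE 0.16), and rps4 at -2.88 (SE 0.17), followed by rps18 at -1.97 (SE 0.15), rps15 at -1.55 (SE 0.15) and rps19 at -0.61 (SE 0.16). The call of rps19 was lost without EBE-XVE replicate 1, EBE-XVE replicate 2 or WT replicate 2 (limma adjusted p = 0.19, 0.18 and 0.18). For rps3 (ArthCp061) the signals were 11.99, 12.47, 12.70, 12.41, 12.62 and 12.64. The replicate 1 value of each genotype was its lowest, but the difference of -0.40 (SE 0.16) did not pass (limma adjusted p = 0.0869) on the deposited scale, and did so after quantile normalization (-0.85) and centring (-1.36). The rps14 probe set read 2.27, 2.33, 2.61, 2.24, 2.33 and 2.34. All of these were close to the lower quartile of the arrays, so little could be measured there, and its difference of -0.15 (SE 0.06) did not pass (limma adjusted p = 0.0958). With quantile normalization it was -0.19 and did not pass. Relative to the median of all probe sets it was -0.43 on the deposited scale, -0.14 after quantile normalization and -0.43 after centring. It passed as lower with centring (-1.10), without the array labelled EBE-XVE replicate 3 (-0.09, limma adjusted p = 0.0177) and without WT replicate 3 (-0.21, limma adjusted p = 0.0047).

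The large subunit genes covered a wider span of directions, with 5 of 7 lower, 1 higher and 1 not passing, and a median of -1.30. For rpl16 (ArthCp060) the signals were 10.24, 12.51, 12.52, 10.30, 12.61 and 12.65. The values of the 2 genotypes were nearly the same within each replicate, and replicate 1 was lower by -2.31 (SE 0.13, limma adjusted p = 3.4e-04), or 4.95-fold. The values of rpl20 at -2.24 (SE 0.20), rpl33 at -1.30 (SE 0.17) and rpl14 at -0.95 (SE 0.13) were lower as well. For rpl32 (ArthCp072) the signals were 10.63, 12.27, 12.26, 11.30, 12.40 and 12.73, a difference of -1.45 (SE 0.17, limma adjusted p = 0.00202). Replicate 1 was lowest in both genotypes, and the EBE-XVE value of each replicate was below the WT value.

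The higher gene was rpl36 (ArthCp057), at 12.52, 11.60, 11.94, 12.59, 11.68 and 11.64. Both replicate 1 arrays were above all others, by 0.84 (SE 0.16, limma adjusted p = 0.0081). That call was lost with quantile normalization (0.41, limma adjusted p = 0.0780) and with centring, where the sign turned (-0.12), and without EBE-XVE replicate 2 (0.79, limma adjusted p = 0.0530). Relative to the median of all probe sets, rpl36 was at 0.56 on the deposited scale and 0.46 after quantile normalization. The smallest difference of all was that of rpl22 (ArthCp062), at 12.67, 12.60, 12.77, 12.77, 12.80 and 12.73. The replicate 1 values lay among the others and the difference was -0.0004 (SE 0.14, limma adjusted p = 0.998). With quantile normalization it was -0.41 and did not pass, and with centring it was -0.96 and passed, values of -0.28, -0.36 and -0.28 relative to the median of all probe sets on the 3 scales.

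All 7 genes outside polymerase and ribosome were lower in replicate 1, with a median of -2.41 log2 units, or 5.30-fold. The largest difference among the 26 genes was that of ycf3 (ArthCp023), which encodes an assembly factor of photosystem I. It read 6.20, 9.67, 9.82, 5.69, 9.74 and 9.72. The other 4 arrays lay between 9.67 and 9.82, and replicate 1 was lower by -3.80 (SE 0.17, limma adjusted p = 2.2e-04), or 13.9-fold. The second assembly factor gene, ycf4, differed by -2.17 (SE 0.20). For accD, the plastid-encoded subunit of acetyl-CoA carboxylase, the difference was -2.72 (SE 0.17), for clpP, a proteolytic subunit of the Clp protease, -2.46 (SE 0.19), and for cemA, an envelope membrane protein gene, -2.41 (SE 0.16).

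The smallest difference of this group belonged to ccsA (ArthCp073), needed to attach haem to c-type cytochromes, at 9.29, 11.15, 11.37, 9.77, 11.19 and 11.38. Replicate 1 was still below all other arrays, by -1.74 (SE 0.16, limma adjusted p = 0.00121). The maturase gene matK (ArthCp003), whose product takes part in splicing of plastid introns, read 9.47, 11.36, 11.49, 9.75, 11.55 and 11.60. Its replicate 1 values did not overlap the others and were lower by -1.89 (SE 0.13, limma adjusted p = 5.5e-04).

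**Figure D2:**
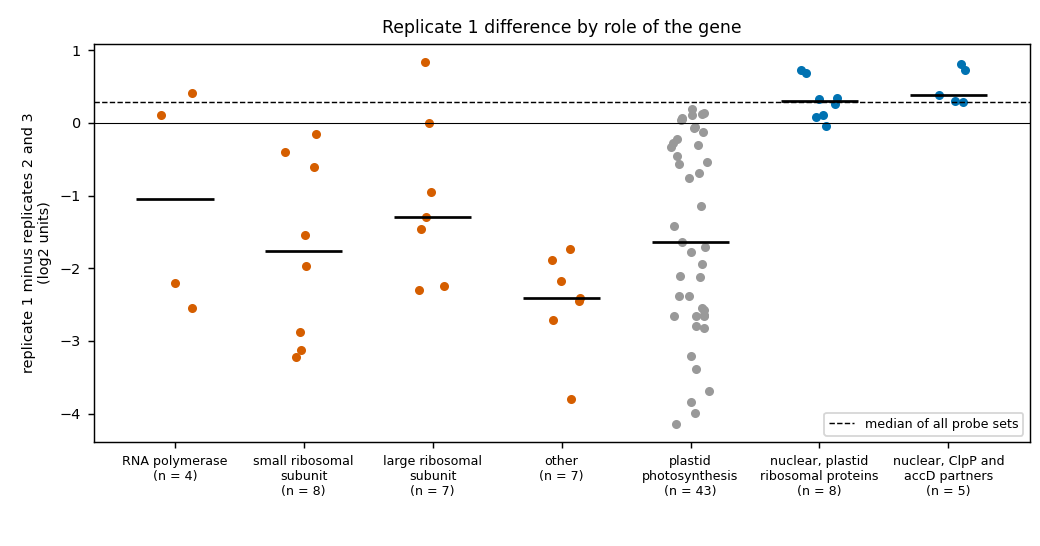
Difference of replicate 1 from replicates 2 and 3 in log2 units (y axis) for each gene, by role, with horizontal bars at the medians and a dashed line at the median of all probe sets (0.28). The 4 plastid groups have medians of -1.05 to -2.41, and the measured nuclear ribosomal protein genes and ClpP and accD partners lie between -0.05 and 0.81.

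In places, neighbouring genes of the plastid genome had like differences. The genes that were higher or did not pass, apart from the dim rpoB and rps14, were rpoA, rpl36, rps3 and rpl22, and all 4 lie within 1 stretch of neighbouring genes. In the order of the reference table the 7 measured genes of the stretch are rpoA, rpl36, rpl14, rpl16, rps3, rpl22 and rps19. Their median difference was -0.40, with a range from -2.31 to 0.84, against -2.20 over the other 19 (-3.80 to 0.10). Relative to the median of all probe sets these medians were -0.69 and -2.49, and -0.80 and -2.87 after quantile normalization. The stretch was delimited after its values were seen, so no test was made. Within it rpl16, at -2.31, stood between rpl14 at -0.95 and rps3 at -0.40, so neighbours did not share 1 value. The genes of this stretch with small differences were bright on all arrays, between 11.60 for rpl36 and 13.04 for rps19, and what a ceiling of the signal may do to them was not tested.

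As background, 5 of the measured genes (rps16, rpoC1, ycf3, clpP and rpl16) hold introns in the Arabidopsis plastid genome. Their differences ran from -3.80 to -2.31, with a median of -2.55, and all 5 were lower in replicate 1. The 21 others had a median of -1.55 and a range from -3.12 to 0.84, of which 15 were lower. The groups thus overlapped, and the differences of rps2, rps4 and accD, at -3.12, -2.88 and -2.72, were larger than those of rpoC1, clpP and rpl16. The split was made after the values were seen and was not tested.

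**Figure D3:**
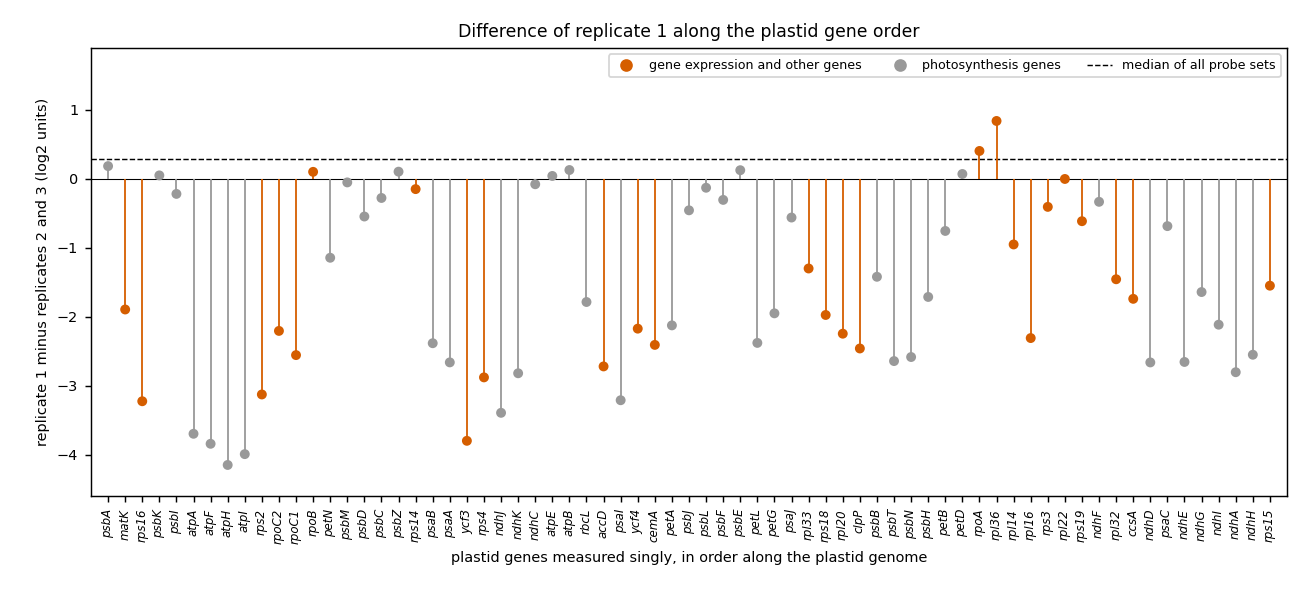
Difference of replicate 1 from replicates 2 and 3 in log2 units (y axis) for the 69 plastid genes with a probe set of their own, in their order along the plastid genome (x axis, not to scale), in orange for the 26 genes described here and in grey for photosynthesis genes, with a dashed line at the median of all probe sets. The run from rpoA to rps19 lies higher than most orange points, with rpl16 at -2.31 as its lowest point.

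The plastid photosynthesis genes were also mixed. Of 43 such genes 26 were lower in replicate 1, 1 was higher and 16 did not pass. The share called lower was 60.5%, beside 76.9% of the genes described here. Their median was -1.64, with a range from -4.15 to 0.19. The higher one, petD, differed by only 0.07, at dim mean signals of 2.11 in replicate 1 and 2.04 in replicates 2 and 3. Next to rps2, the ATP synthase gene atpI differed by -3.99, and next to ycf4, psaI differed by -3.21. Other neighbours were less alike. The next measured gene after rps16 (-3.22) was psbK at 0.05, and ndhF, next to rpl32 (-1.45), was at -0.33. Mitochondrion-encoded genes, with 23 probe sets, had a median of -0.18, and 17 of the 23 were called lower and 4 higher. Their median signals in replicate 1 were dim, at 2.66 and 2.61 beside lower quartiles of 2.67 and 2.64. On the other arrays they were 3.69 to 4.09. What this dim range does to the size of their differences was not tested. These groups were not tested against the 26 genes.

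Calls of nuclear genes for partners of these proteins in replicate 1 are read beside those of all probe sets. On the deposited scale 42.4% of these were called higher and 11.6% lower. Of 37 listed nuclear genes of plastid ribosomal proteins 8 were measured, and 2 were higher, 0 lower and 6 did not pass, with a median of 0.30. The higher ones were PRPL29 (AT5G65220) at 0.73 (SE 0.17, limma adjusted p = 0.0154) and PRPS10 (AT3G13120) at 0.69 (SE 0.17, limma adjusted p = 0.0207). Of 18 listed nuclear partners of ClpP and accD 5 were measured, with CLPR3 (0.81, SE 0.15) and CLPP4 (0.73, SE 0.13) higher and 3 not passing. With quantile normalization these 4 genes were at 0.20 to 0.23 and with centring at -0.15 to -0.27, and none of them passed. With centring 6 of the 8 ribosomal and 3 of the 5 ClpP and accD genes were called lower, beside 59.4% of all probe sets. All of those were genes other than these 4. Relative to the median of all probe sets, the medians of the ribosomal and the ClpP and accD partners were 0.01 and 0.11 on the deposited scale and -0.14 and -0.17 after quantile normalization. The only measured gene of 22 listed partners of the plastid RNA polymerases was AT5G15700, listed as RPOTmp, a phage-type polymerase of plastids and mitochondria, which was lower by -0.65 (SE 0.10, limma adjusted p = 0.00459) at a dim 3.00 to 3.69.

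Several other measures moved with replicate 1, and their part in the plastid difference was not tested. The root-expressed PYK10 was 3.36 log2 units higher there (SE 0.16, limma adjusted p = 2.3e-04), while the 2 other measured root markers were dim on every array, EXPA7 lower by -0.37 (SE 0.02, limma adjusted p = 3.0e-04) and EXPA18 at -0.04 (SE 0.02), which did not pass. The measured shoot markers differed by 0.22 to 0.46 and 0 of 3 passed. With centring they were at -0.50 to -0.74 and 3 of 3 were called lower, beside 59.4% of all probe sets. The sources used here do not say how the RNA was primed for labelling.

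The shift of replicate 1 was of like size in both genotypes. The median over the 26 genes was -2.02 within EBE-XVE and -1.84 within WT. The difference of the shift between genotypes was tested gene by gene with an interaction term, and 0 of the 26 genes passed (lowest limma adjusted p = 0.66), where 1.18% of all probe sets did. At an unadjusted p under 0.05 the count was also 0 of the 26, beside 9.16% of all probe sets. The largest gaps were those of ycf3, at -3.55 in EBE-XVE and -4.04 in WT, and of ccsA, at -1.97 and -1.51. Between replicates 2 and 3, 0 of the 26 genes and 0% of all probe sets were called by limma (0 of the 26 and 1.24% at an unadjusted p under 0.05). The differences of replicate 2 from replicate 3 ran from -0.32 for rpoC1 to 0.16 for ycf4, with a median of -0.05.

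In the genotype comparison none of the 26 genes passed the test between EBE-XVE and WT. Limma with genotype as the only term called 0 of the 26, and 0% of all probe sets, in either direction. At an unadjusted p under 0.05 there were 0 of the 26 and 0.347% of all probe sets. The median difference of EBE-XVE from WT was -0.08 log2 units, with 10 genes above WT and 16 below, and the range ran from -0.42 for rpl32 to 0.28 for rpoC2. For no gene did the 3 EBE-XVE values lie wholly on one side of the 3 WT values, which held for 1.38% of all probe sets. Because replicate 1 sat so far from the others, the spread within a genotype was large. For ycf3 the EBE-XVE mean was 8.56 ± 2.05 (SD, n = 3) and the WT mean 8.38 ± 2.33 (SD, n = 3), and standard errors of the differences ran from 0.09 to 1.48. With the replicate number as a block, standard errors fell to between 0.06 and 0.27. The count stayed at 0 of 26 and 0% of all probe sets, and all 26 intervals at 95% confidence, not adjusted for the number of genes, lay within 1 log2 unit of 0, between -0.82 and 0.95. The median half-width of these intervals was 0.387 log2 units. They include the array labelled EBE-XVE replicate 3, which lacked the raised EBE signal, so they bound the difference between the labelled genotypes only. With that array left out and replicate 1 as a batch block, the median difference of the 26 genes was -0.11.

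The genes with the smallest unadjusted p in that blocked fit were rpl32 and rps18. The ribosomal gene rpl32 was below WT by -0.67, -0.13 and -0.46 in pairs 1, 2 and 3, a mean of -0.42 (blocked SE 0.16, limma unadjusted p = 0.0414, adjusted p = 1.00). The values of rps18 were -0.50, -0.40 and -0.14, a mean of -0.35 (blocked SE 0.14, limma unadjusted p = 0.0489, adjusted p = 1.00). These 2 of 26 stand beside 1.22% of all probe sets that were lower at that unadjusted level, and neither passed.

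The sign of the genotype difference varied with the pair. Pairs 2 and 3 rest on the labels' replicate numbers, since EBE-XVE 2 and 3 correlated with either WT array about equally. In pair 1, 17 of the 26 genes were below WT (28.2% of all probe sets), and the median difference was -0.09. In pair 2, 24 of the 26 were below WT (32.4% of all probe sets), and the median was -0.16. In pair 3, whose EBE-XVE array lacked raised EBE, 7 were below (71.6% of all probe sets) and 19 above (28.4%), at a median of 0.09. The genes share their arrays, so these counts are not counts of independent genes. The 3 measured shoot markers had the same signs, with medians of -0.48, -0.22 and 0.26 and with 3 of 3 below WT in pairs 1 and 2 and 3 of 3 above in pair 3, and their part in these values was not tested. Below WT in all 3 pairs were 5 of the 26 genes (6.23% of all probe sets), which were matK, rps18, rpl16, rpl32 and ccsA. Above WT in all 3 were rps14 and rps15 (8.23% of all probe sets).

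By role, the medians within pairs 1, 2 and 3 were -0.03, -0.22 and 0.23 for polymerase genes, 0.01, -0.12 and 0.13 for the small subunit, -0.10, -0.17 and 0.02 for the large subunit, and -0.10, -0.19 and 0.13 for the other genes. In pair 3 the polymerase genes rpoC2, rpoA, rpoC1 and rpoB were at 0.94, 0.26, 0.19 and -0.17. The photosynthesis genes of the plastid stood at -0.21, -0.16 and 0.14 by the same measure. The measured nuclear genes of plastid ribosomal proteins, at -0.35, -0.27 and 0.14, had the same signs, with 8 of 8 below WT in pairs 1 and 2 and 7 of 8 above in pair 3. None of them was called, and those with the smallest p were PSRP1 at -0.57 (SE 0.31) and PRPL5 at -0.22 (SE 0.16). Among the nuclear partners of ClpP and accD 0 of 5 were called either. CLPT1 differed by -0.11 (SE 0.19) and CLPT2 by -0.08 (SE 0.19), and RPOTmp differed by 0.01 (SE 0.28).

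**Figure D4:**
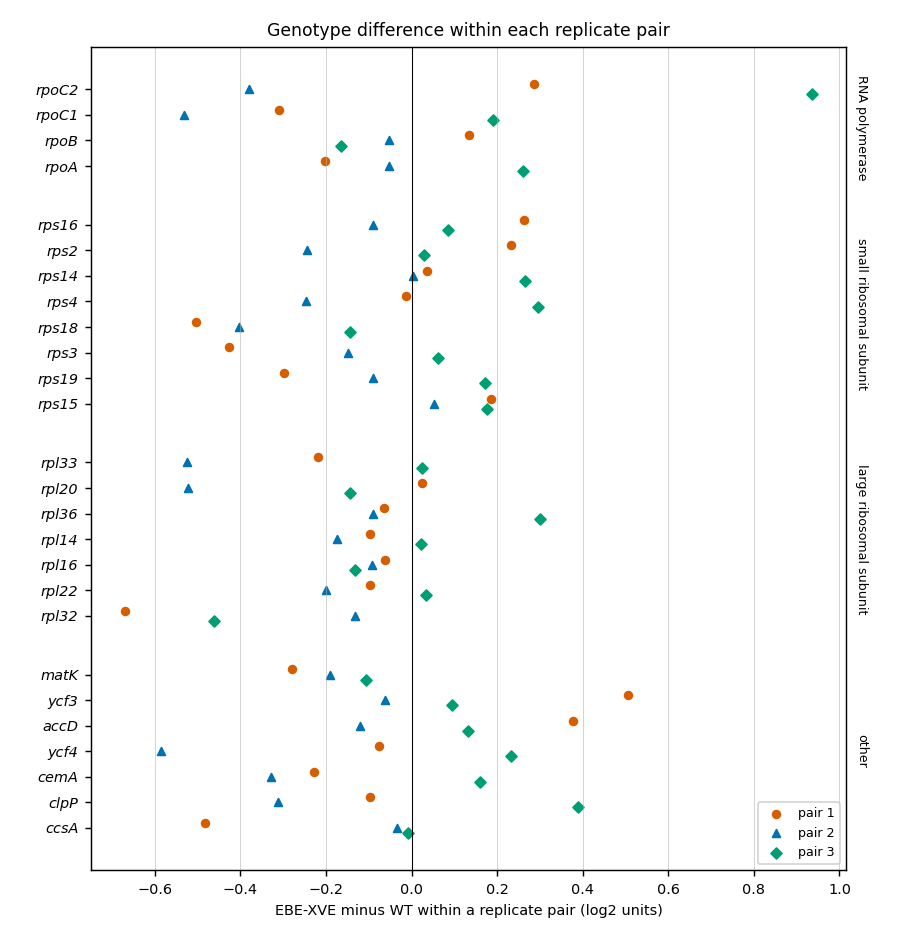
Difference of EBE-XVE from WT in log2 units within each replicate pair (x axis) for each of the 26 genes (y axis, grouped by role), with circles, triangles and diamonds for pairs 1, 2 and 3. Pair 2 lies below 0 for 24 genes and pair 3, with the array labelled EBE-XVE replicate 3, above 0 for 19, and no gene was called.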

How the data were processed

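The log2 signals of 6 arrays were used as deposited by the authors, who per the submitters' processing notes made them with GCRMA and RMA (roles and versions not stated). They run from 1.30 to 14.99, and the base of the logarithm was read from that range. Of 22810 probe sets, 64 controls were left out. Genes were named through the platform annotation and the RefSeq gene table (TAIR10.1), which gave names and gene order only. Probe sets with 1 gene numbered 13513, those with several 503, and 8730 were unnamed here. Listed genes that found no match may lie among the unnamed or several-gene probe sets, so they are not known to be absent from the array. Mitochondrial genes were matched by symbol.

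Fits were made in R 4.3.3 with limma 3.58.1 (lmFit, eBayes with a mean-variance trend) over 22746 probe sets, with 2-sided p-values adjusted by Benjamini-Hochberg. Calls had an adjusted p under 0.05. EBE-XVE was compared with WT with genotype as the only term, and replicates with genotype and replicate number as terms. The number of arrays limits the precision. In the genotype fit p-values measure the spread between arrays of a genotype. In the replicate fit, with 2 residual degrees of freedom, they measure how far the 2 genotypes differed in their replicate differences. As replicate 1 is 1 array per genotype, they do not measure how much 1 seedling replicate varies from another. Deviations of same-numbered arrays from their group means correlated at 0.79, 0.54 and 0.58 over all probe sets, so the numbers were taken as pairs. EBE-XVE 2 with WT 3 and EBE-XVE 3 with WT 2 correlated at 0.55 and 0.60, so the correlations set replicate 1 apart and do not tell pairs 2 and 3 from a crossed pairing. No arrays held identical values. The scripts were tested on simulated data. The genes, lists and comparisons were chosen with earlier results of these data known. Values on every array are given for the polymerase genes and, in each other role, for the genes with the largest and smallest replicate 1 difference and the 2 smallest p-values in the genotype comparison. Of each nuclear list up to 3 called genes are named, or else the 2 with the smallest p. Alternatives were median centring, quantile normalization, a fit with no trend, leaving out the dimmest 40% of probe sets by mean signal, other terms, and omission of each array.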

Additional observations from a re-analysis of the deposited data

How the results depend on the processing

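Scaling and dim probe sets moved the counts most, and the cause was not tested beyond their construction. For replicate 1 against replicates 2 and 3, limma called 9638 probe sets higher and 2648 lower, against 4635 and 7660 with quantile normalization and 2262 and 13505 with median centring. The lower count was 1153 without the trend and 674 without dim probe sets, where fewer were tested, and 1531 to 4244 (higher 8266 to 9625) when each array was left out. It was 1.5 times lower or more without EBE-XVE replicate 2 (1531), WT replicate 1 (1649) or WT replicate 2 (1617), and rose to 4244 once the array labelled EBE-XVE replicate 3 was left out. The count of 21 called genes among the 26 ran from 19 to 23 there, and the median of -1.93 from -2.02 to -1.84. That median was -2.50 with quantile normalization, -2.89 with centring and -2.07 without dim probe sets, which dropped rpoB and rps14. Of the 20 genes called lower, rps19 was lost without EBE-XVE replicate 1, EBE-XVE replicate 2 or WT replicate 2 (adjusted p = 0.19, 0.18 and 0.18). Of 310 single-gene alternatives 9 reversed: rpoB (-0.28 with quantile normalization, -0.85 with centring), rpoA (-0.028 and -0.55), rpl36 (-0.12 with centring), and, with each array left out, rpoB (-0.019 to 0.225) and rpl22 (-0.046 to 0.046).

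For EBE-XVE against WT, 0 of the 26 genes were called under every alternative run, the replicate block included, which changed no call. Over all probe sets 1 was higher with replicate 1 as a batch block and the array labelled EBE-XVE replicate 3 left out, and 3 were lower in replicates 2 and 3 alone. With each array left out, in fits without a block, the median of -0.08 ran from -0.80 without WT replicate 1 to 0.48 without EBE-XVE replicate 1, since 1 genotype then lacked its replicate 1 array. The differences then ran from -0.68 to 0.48 for ccsA, -0.80 to 0.46 for matK, -0.87 to 0.67 for rpl16, -0.13 to -0.05 for rpl22, -0.84 to 0.13 for rpl32, -0.13 to 0.19 for rpoA, -0.10 to 0.033 for rpoB, -1.04 to 0.66 for rpoC1, -0.45 to 1.014 for rpoC2, -0.00014 to 0.17 for rps14, -1.03 to 1.12 for rps16, -0.33 to 0.028 for rps3 and -1.17 to 1.36 for ycf3. That batch block with 5 arrays reversed rpoB (0.022) and rpoA (-0.069), and replicates 2 and 3 alone reversed rps16 (-0.0020). The other 150 of 180 single-gene alternatives kept their sign. Signal over background was not measured, so what dim probe sets could show is unknown.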
